A study of Canis lupus familiaris with 20 samples.

Results

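The window examined lies on chromosome 18 of the dog genome CanFam3.1 and takes in the annotated genes whose lowest base lies from 46124411 to 46327136, a position that fits the imprinted IGF2 and H19 region. It holds 11 of the 24580 genes of the deposited count table, and 10 of them reached 50 counts over all libraries. Messenger RNA was sequenced from the cartilage of the vertebral epiphysis (the T12 vertebra, both ends pooled per dog). Mucopolysaccharidosis VII (MPS VII) is a lysosomal storage disease, and the dogs come from a naturally occurring model with the missense change R166H in GUSB. The 4 groups of 5 dogs were heterozygous controls at postnatal day 9 and at day 14, and homozygous MPS VII dogs at day 9 and at day 14, so every dog in the data carried at least 1 mutant copy. The series is concerned with failed replacement of this cartilage by bone. In bulk tissue, fewer cells of a type and less RNA per cell cannot be told apart. The identifiers of the table are not paired with gene names here, so neither IGF2 and H19 nor the marker genes of cartilage could be checked by name.

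As background, IGF2 encodes an insulin-like growth factor that drives fetal growth through receptors shared with the insulin system, and is made mainly from the paternal copy of the gene. H19 is a long non-coding RNA made from the maternal copy, and both draw on common enhancers under the control of a methylated region that lies between them. In growing cartilage IGF2 is known to promote proliferation of chondrocytes, and in many tissues both RNAs decline after birth. In the RefSeq annotation of another dog assembly, UU_Cfam_GSD, the genes on this stretch of chromosome 18 follow the order LSP1, TNNT3, MRPL23, H19, IGF2, MIR483, INS and TH, with some unnamed loci between them. Read counts per gene do not separate the parental copies. None of these names is assigned to a row below.

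The genes are numbered here by position, from gene 1 to gene 11. Gene 7 (ENSCAFG00000010090), from 46293985 to 46304805 on the minus strand, has 7 exons of 1655 bases in all and held 504104 counts, 69.2% of the counts of the window. Genes 4, 5 and 6 are single-exon entries of 71, 95 and 69 bases. Gene 4 ends at 46206243 on the plus strand, gene 5 runs from 46206389 to 46206483 on the minus strand, and gene 6 runs from 46207182 to 46207250 on the plus strand. They held 52645, 85436 and 70578 counts. Gene 3 (ENSCAFG00000010086), from 46166685 to 46173774 on the plus strand, has 5 exons and held 10531 counts. Gene 2, from 46131769 to 46148633 on the plus strand, has 17 exons and held 3157 counts. Gene 1, a single exon of 1317 bases from 46124411 on the minus strand, held 1118 counts. It lies within the span of a gene on the opposite strand that starts before the window, at 46087794, and shares 0 exon bases with it.

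The other genes of the window held fewer counts than these. Gene 8, 69 bases from 46298392 on the minus strand, lies in an intron of gene 7 on the same strand and held 87 counts, the lowest total above the limit of 50. Gene 9 (5 exons, 46311865 to 46324933, minus strand) held 274 counts. Gene 10 (19 exons, 46321292 to 46829537, plus strand) overlaps the span of gene 9 by 3642 bases without sharing an exon base and held 870 counts. Only its first exon, of 52 bases, lies in the window, and the next starts at 46422187. Its span also overlaps gene 11 and genes after the window, again without sharing an exon base. Gene 11 (13 exons, from 46327136, minus strand) held 0 counts in all 20 libraries. At the upper edge, the first gene outside the window started at 46395391 and held 60 counts.

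Total counts per library ran from 15772761 to 28028365, with 21419930 or more in the day 9 libraries and 22471728 or less in the day 14 libraries, so depth was lower in the older dogs. Library 3 of the MPS VII dogs at day 9 stood apart: its mean correlation with the rest of its group was 0.92, against 0.958 to 0.98 in the other libraries. The most abundant gene of the table, on chromosome 27 from 6756994, took 7.49% of its counts, against 25.4% to 33.2% in the rest of the group. That gene took 25.7% to 35.1% of the counts in the controls of day 9, 10.4% to 24.8% in the controls of day 14 and 16.3% to 27.6% in the MPS VII dogs of day 14. With library sizes taken without that gene, gene 7 of the window stood at -0.90 (log2) with age in MPS VII dogs. There 2 genes of the window were called lower, where 10.3% of all genes were. Why the share of the chromosome 27 gene differed was not tested. Values without library 3 of the MPS VII dogs at day 9 are given beside the tests on its group.

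Gene 7 was the most abundant gene of the window, above 99.6% of the tested genes in mean CPM (counts per 1e6 of the scaled library size). The control dogs of day 9 stood at 1108, 1584, 1548, 2034 and 1801 CPM. The MPS VII dogs of day 9 stood at 1650, 1755, 821, 2096 and 1960 CPM. Both groups of day 9 overlapped, and the lowest value was that of the library that stood apart.

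At day 14 gene 7 was lower in both genotypes. The control dogs held 315, 519, 365, 307 and 727 CPM, all below every day 9 control. The MPS VII dogs held 991, 934, 731, 725 and 1054 CPM, and the lowest of them stood just under the highest control. Group means were 1615 ± 344 and 1656 ± 498 CPM at day 9, and 447 ± 178 and 887 ± 151 CPM at day 14, for control and MPS VII dogs in turn (SD, n = 5 each). Per kilobase of exon, the means were 976 ± 208, 1001 ± 301, 270 ± 108 and 536 ± 91.4 RPKM in the same order.

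The short gene 4 stood at 134, 195, 155, 197 and 168 CPM in the control dogs of day 9. The MPS VII dogs of day 9 held 213, 178, 40.0, 212 and 167 CPM. At day 14 the controls held 30.8, 38.2, 37.3, 31.4 and 59.9 CPM and the MPS VII dogs 165, 100.1, 70.8, 114 and 99.7 CPM. At day 14 every MPS VII library lay above every control, while at day 9 the ranges overlapped.

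Gene 5, on the opposite strand, followed the same order. It stood at 226, 359, 245, 299 and 282 CPM in controls and 395, 286, 61.2, 338 and 244 CPM in MPS VII dogs at day 9. The day 14 values were 39.6, 56.7, 58.3, 42.7 and 79.5 CPM in controls and 310, 154, 97.2, 183 and 134 CPM in MPS VII dogs. As for gene 4, the control dogs of day 14 lay below all other dogs except library 3 of the MPS VII dogs at day 9.

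Gene 6 stood at 179, 235, 216, 255 and 218 CPM in controls and 253, 246, 61.5, 273 and 199.6 CPM in MPS VII dogs at day 9. At day 14 it held 49.5, 63.6, 50.4, 52.9 and 81.6 CPM in controls and 208, 133, 119.9, 174 and 161 CPM in MPS VII dogs. Per kilobase, genes 4, 5 and 6 averaged 1694, 2047 and 2342 RPKM over all libraries, against 696 RPKM for gene 7. All 3 are shorter than a read of 100 bases, so any read counted to them extends beyond them, and their RPKM overstates their level beside longer genes.

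Gene 3 was 30.9 ± 3.07 CPM in controls and 30.3 ± 4.57 CPM in MPS VII dogs at day 9, and 15.1 ± 2.23 and 19.4 ± 2.23 CPM at day 14 (SD, n = 5 each). By library, the MPS VII dogs held 32.6, 29.7, 24.1, 36.3 and 28.7 CPM at day 9 and 22.1, 20.1, 17.4, 20.4 and 16.8 CPM at day 14. Every MPS VII library of day 14 lay below every one of day 9, a separation found in 3.49% of all genes in this direction. Per kilobase gene 3 averaged 27.4 RPKM over all libraries.

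Gene 2 was at 11.8 ± 7.43 CPM in the controls of day 9, where replicate 1 held 24.1 CPM and the others 4.93 to 12.7 CPM. The other groups stood at 7.15 ± 1.38 CPM (MPS VII, day 9), 3.64 ± 2.48 CPM (control, day 14) and 5.54 ± 1.76 CPM (MPS VII, day 14). Gene 1 ran from 0.474 to 5.32 CPM over all libraries, and its groups overlapped in each of the comparisons made here.

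Gene 9 held 15 to 30 counts per library in the controls of day 9, 7 to 29 in the MPS VII dogs of day 9, 0 to 7 in the controls of day 14 and 4 to 21 in the MPS VII dogs of day 14. Gene 10 had its higher values at day 14, with 1.42 ± 0.237 CPM at day 9 and 2.56 ± 0.377 CPM at day 14 in controls, and 1.60 ± 0.378 and 2.45 ± 0.937 CPM in MPS VII dogs. Gene 8, the intronic entry, summed to 46 counts in the controls of day 9, 21 in the MPS VII dogs of day 9, 1 in the controls of day 14 and 19 in the MPS VII dogs of day 14. It was too low to be tested, and depth limits what its values show.

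**Figure D1:**
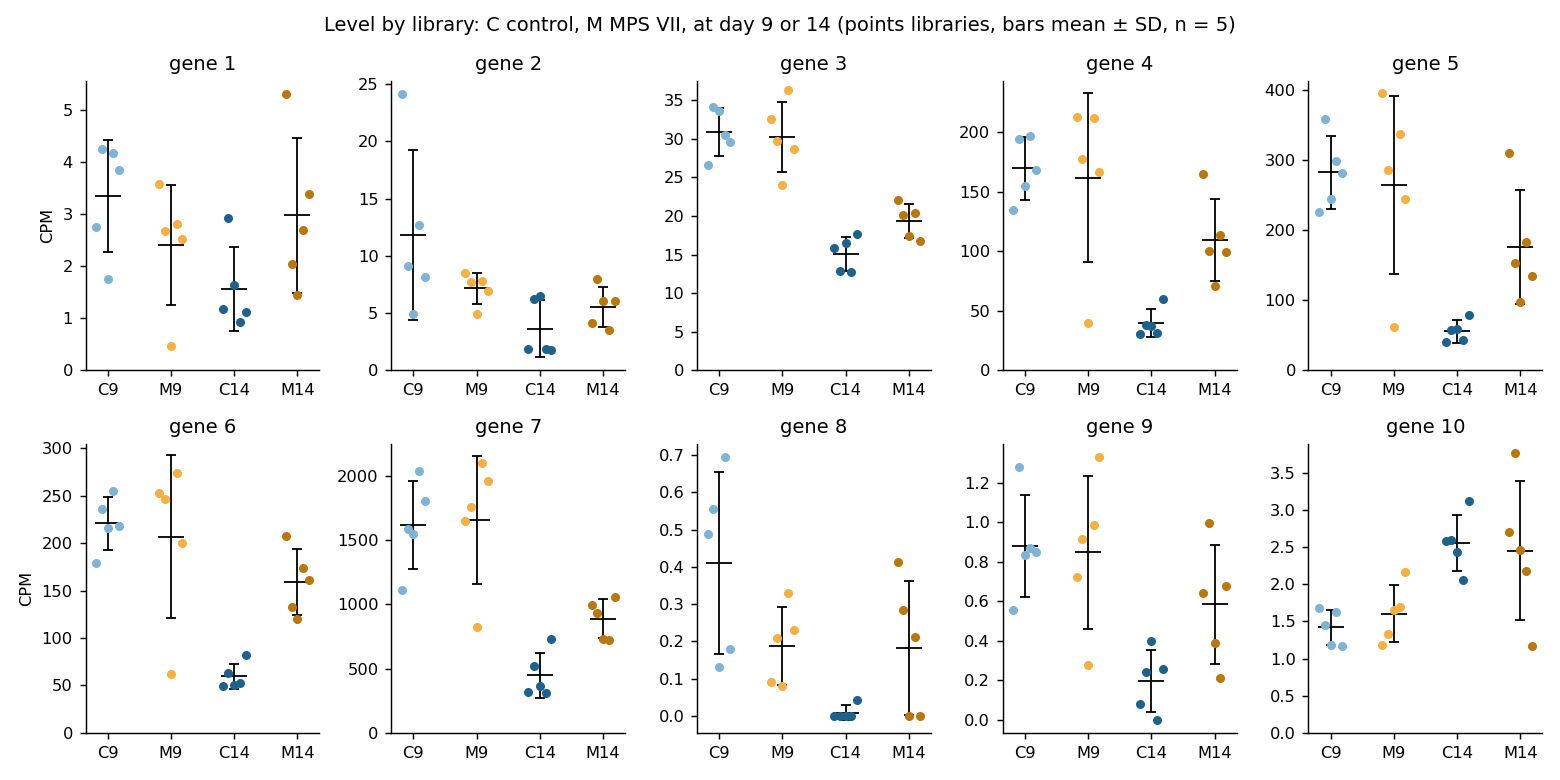
Each panel plots the level of 1 gene of the window in CPM, with 1 point per library in control (C) and MPS VII (M) dogs at day 9 or 14, and bars for the mean ± SD (n = 5). For genes 4 to 7 the control dogs of day 14 are the lowest group, with gene 7 at 447 CPM against 887 to 1656 CPM in the other groups.

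The change with age in MPS VII dogs was tested, since the window was chosen on the control dogs. These libraries also enter the comparison of genotypes at day 14, in which the short genes first drew attention. Gene 3 fell by 0.64 ± 0.12 on the log2 scale (SE) and gene 7 by 0.90 ± 0.25, with edgeR adjusted p of 7.15e-04 and 0.0135 (quasi-likelihood test, Benjamini-Hochberg adjustment over all tested genes). These are falls of 1.56-fold and 1.87-fold. Of the 9 genes of the window that could be tested, these 2 were lower past the threshold of 0.05 and 0 were higher, by edgeR and by DESeq2. At an unadjusted edgeR p under 0.05 the counts were 2 lower and 1 higher, and the share of all genes at that limit was not computed. Over all 14550 tested genes, edgeR called 9.92% lower and 12.7% higher in this comparison at the adjusted threshold, and DESeq2 10.3% lower and 15.1% higher.

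The other genes of the window did not pass in MPS VII dogs. Genes 4, 5 and 6 had log2 fold changes of -0.56 ± 0.32, -0.59 ± 0.36 and -0.38 ± 0.27 (edgeR adjusted p of 0.203, 0.235 and 0.309). Without library 3 of day 9, genes 3 and 7 stood at -0.69 and -1.05 and kept their calls. Genes 4, 5 and 6 were then at -0.79, -0.83 and -0.59 and passed, with edgeR adjusted p of 0.00635, 0.0281 and 0.00599. In that fit 5 of 9 genes were called lower where 10.5% of all genes were. Genes 4 to 6 lie close together and may share read pairs, which was not tested, so their calls are not counted as separate changes. Gene 10 was at 0.61 ± 0.26 (edgeR adjusted p = 0.0938), and passed at 0.82 without library 5 of day 14 (edgeR adjusted p = 0.0211). Genes 1, 2 and 9 had values of 0.31 ± 0.42, -0.37 ± 0.41 and -0.52 ± 0.51.

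These values can be set beside genes of like length. The median log2 fold change with age in MPS VII dogs was -0.13 over the 1448 tested genes with 1420 to 1815 bases of exon, which include gene 7. Of these, 3.38% had a lower value than gene 7. It was -0.21 over the 1464 genes with 639 to 1038 bases, which include gene 3, and 12.6% of these had a lower value than gene 3.

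In control dogs the same ages gave larger values. They are described here and not used as a test, because the window was chosen on them. Gene 7 was lower at day 14 by a log2 fold change of -1.85 ± 0.26 (SE), or 3.62-fold. Genes 4, 5 and 6 stood at -2.10 ± 0.33, -2.35 ± 0.37 and -1.89 ± 0.27, which is 4.30-fold, 5.10-fold and 3.70-fold lower. Gene 3 was at -1.03 ± 0.12, gene 2 at -1.71 ± 0.42, gene 1 at -1.11 ± 0.43 and gene 9 at -2.17 ± 0.57. Gene 10 was higher, at 0.85 ± 0.26. All 9 tested genes were past the threshold, 8 lower and 1 higher, where 20.7% of all genes were called lower and 21.8% higher. Gene 1 was no longer past it on leaving out any 1 of control day 9 replicates 2, 4 or 5, control day 14 replicates 1, 3, 4 or 5, or MPS VII day 14 replicates 2, 4 or 5. In 6 of the 8 lower genes the control libraries of both ages were separate, with genes 1 and 2 as the exceptions, where 18.2% of all genes were lower in this way. Those of gene 10 were separate too, where 20.2% of all genes were higher. Since the window was chosen on this comparison, nothing is read from these counts.

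**Figure D2:**
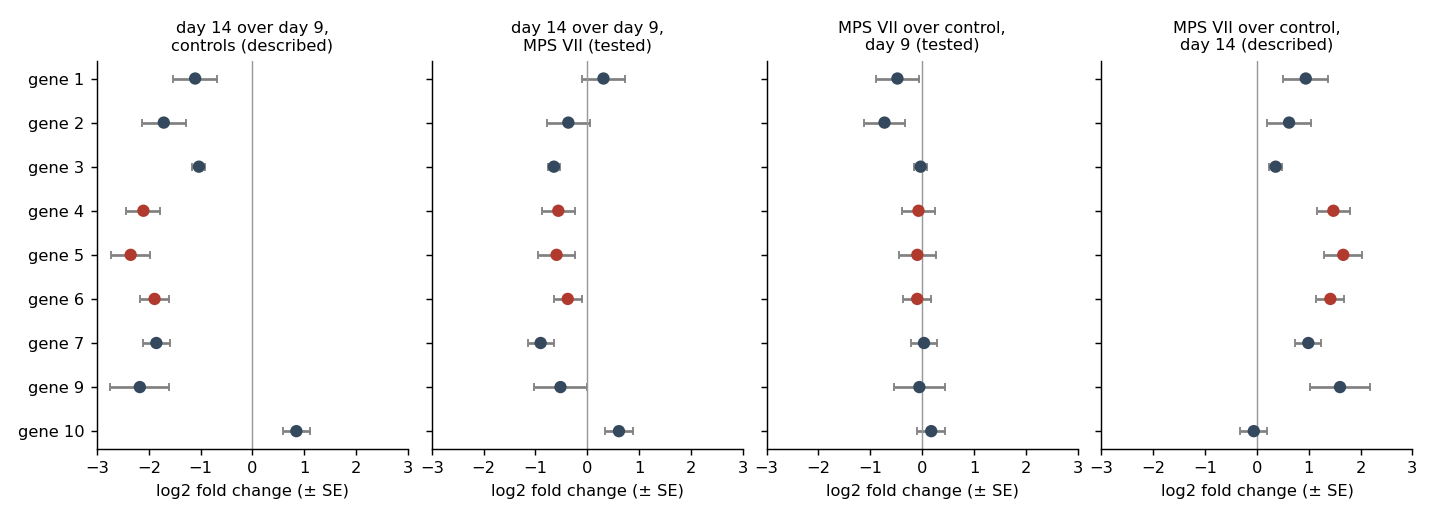
Log2 fold changes (± SE, 5 libraries per group) are shown for the 9 tested genes in 4 comparisons, with the short genes 4 to 6 in red. Gene 7 stands at -1.85 and -0.90 with age in controls and MPS VII dogs, and at 0.04 and 0.99 between genotypes at day 9 and day 14.

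The genotypes were next compared at day 9. No gene of the window passed the test, where 8.38% of all genes were called by edgeR and 1220 genes were called in all. At an unadjusted p under 0.05 the count within the window was also 0, as the smallest edgeR p of the 9 was 0.0869, for gene 2. The share of all genes at that limit was not computed. DESeq2 called 0 as well, where it called 7.09% of all genes higher and 3.55% lower. The log2 fold changes of MPS VII over control dogs were 0.04 ± 0.25 for gene 7, -0.07 ± 0.31, -0.09 ± 0.36 and -0.09 ± 0.27 for genes 4 to 6, and -0.03 ± 0.12 for gene 3. The standard error of gene 3 was the smallest of the window, and those of genes 1, 2 and 9 the largest (0.42, 0.40 and 0.50). The controls of day 9 enter both this comparison and the change with age in controls.

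Some of these day 9 values changed sign with a single library. Without library 3 of the MPS VII dogs, genes 4, 5 and 6 stood at 0.18, 0.16 and 0.14. Then 0 genes of the window were called, where 5.08% of all genes were called higher and 2.09% lower. Gene 7 kept its sign there, at 0.21. Gene 2 kept its sign on leaving out each library in turn, at -0.73 ± 0.40 with all libraries and at -0.28 without replicate 1 of the controls, the library that held 24.1 CPM.

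At day 14 the same comparison differed, and is described and not used as a test because the short genes were picked on it. Genes 4, 5 and 6 were higher in MPS VII dogs by 1.47 ± 0.32, 1.66 ± 0.37 and 1.42 ± 0.27 on the log2 scale, or 2.78-fold, 3.17-fold and 2.67-fold, and all libraries of one genotype lay above those of the other, as for 9.27% of all genes. Gene 7 was higher by 0.99 ± 0.25, or 1.99-fold, and 1 MPS VII library lay just below the highest control. Gene 3 was at 0.36 ± 0.12. Genes 1, 2 and 9 stood at 0.94 ± 0.43, 0.62 ± 0.42 and 1.60 ± 0.58, and gene 10 at -0.06 ± 0.26. Of the 9 genes 5 were past the threshold, all higher, where 11.3% of all genes were called higher and 10.7% lower. Without library 3 of the MPS VII dogs at day 9, 7 were past it. In that fit 15.8% of all genes were called higher and 14.1% lower. Nothing is read from these counts, since this comparison was part of the choice.

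The change with age in MPS VII dogs less that in controls is built on the same control libraries and is likewise only described. It was 1.54 ± 0.45, 1.76 ± 0.51 and 1.51 ± 0.38 on the log2 scale for genes 4, 5 and 6, and 0.95 ± 0.35 for gene 7. Gene 3 stood at 0.39 ± 0.17, genes 1, 2 and 9 at 1.42 ± 0.60, 1.35 ± 0.58 and 1.66 ± 0.77, and gene 10 at -0.24 ± 0.37. Only gene 6 was past the threshold, where 0.825% of all genes were called in that direction. That call was lost on leaving out any 1 of 10 libraries: control day 9 replicates 2, 3, 4 or 5, control day 14 replicates 1, 3 or 4, or MPS VII day 14 replicates 1, 4 or 5. Without library 3 of the MPS VII dogs at day 9, genes 4 and 6 stood at 1.29 and 1.28. Genes 4, 5 and 6 were then past the threshold, where 1.85% of all genes were called in that direction. The count was also 3 without MPS VII day 9 replicate 4 (1.08% of all genes), and 2 without control day 14 replicate 5 (0.571% of all genes). Nothing is read from these counts either.

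The short genes were then set against each other. They lie within 1078 bases, with 145 bases between genes 4 and 5 and 698 bases between genes 5 and 6. Gene 4 took 24.1% to 27.3% of their summed counts in every library, gene 5 took 33.0% to 45.9% and gene 6 took 29.4% to 41.7%. The share of gene 4 thus moved by little over all 20 libraries, although the summed level ran from 120 to 861 CPM. The share of gene 5 was 41.8% ± 2.36 in the controls of day 9 and 35.7% ± 2.71 in those of day 14, and that of gene 6 was 32.9% ± 1.97 and 38.9% ± 3.08 (SD, n = 5). Counts were high on both strands within the stretch. The sources used here do not give whether the counting used strand, so reads of 1 transcript counted to entries on both strands and transcripts from both strands cannot be told apart. Whether single read pairs reached more than 1 of these entries was not tested, and the 3 are not counted as separate changes.

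With the 3 entries summed into 1 before the fit, their log2 fold change was -0.51 ± 0.31 with age in MPS VII dogs (edgeR adjusted p = 0.233) and -0.09 ± 0.31 between genotypes at day 9 (edgeR adjusted p = 0.891). The described values were -2.12 ± 0.32 with age in controls and 1.52 ± 0.31 between genotypes at day 14. The other 118 tested genes with under 100 bases of exon had a median of 0.34 with age in MPS VII dogs and 0.04 with age in controls.

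Counts of genes 4 to 6 over counts of gene 7 gave 0.487, 0.498, 0.398, 0.369 and 0.371 in the controls of day 9. In the MPS VII dogs of day 9 the ratio was 0.522, 0.405, 0.198, 0.393 and 0.311, lowest in the library that stood apart. The controls of day 14 gave 0.381, 0.305, 0.400, 0.413 and 0.304, and the MPS VII dogs of day 14 gave 0.688, 0.414, 0.394, 0.649 and 0.374. The ranges of the 4 groups overlapped, and 2 MPS VII libraries of day 14 stood above all others. No test was made of these ratios.

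**Figure D3:**
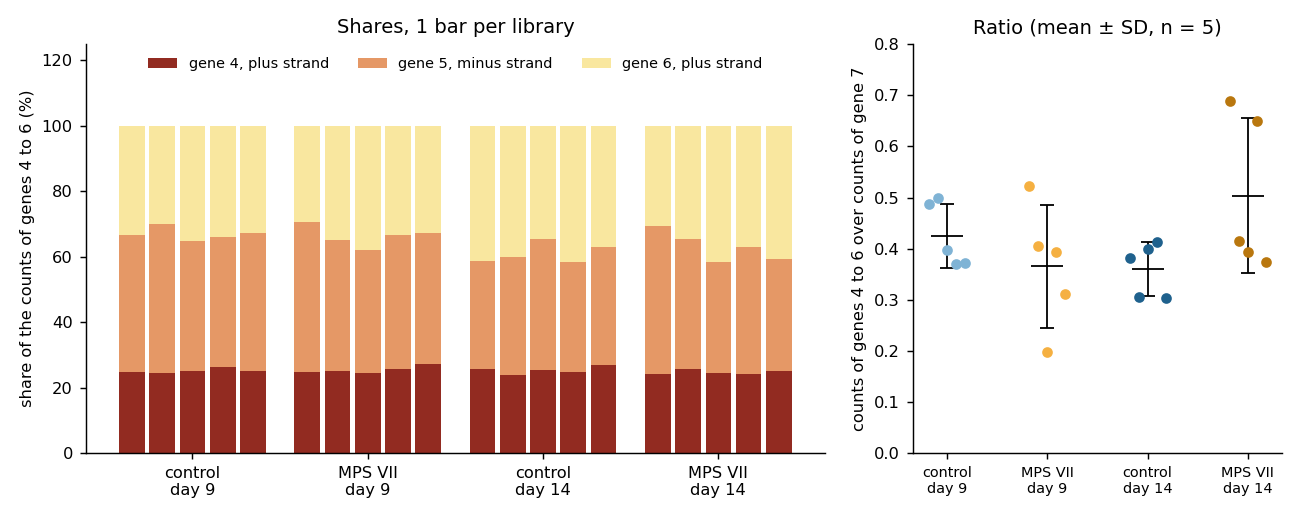
The left panel stacks the shares (%) of genes 4, 5 and 6 in their summed counts, 1 bar per library. The right panel plots the summed counts of genes 4 to 6 over those of gene 7, with 1 point per library and the mean ± SD (n = 5), and 2 MPS VII libraries of day 14 lie highest at 0.688 and 0.649.

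The flanking stretches of 210000 bases on each side held 16 genes, of which 9 reached 50 counts and 8 were tested. In MPS VII dogs 0 of the 8 passed the test of the change with age by edgeR or by DESeq2. By edgeR, 1 lower and 1 higher had an unadjusted p under 0.05. The flanking gene from 46076928 stood at -0.99 ± 0.40 (edgeR adjusted p = 0.0759), a lower value than that of any tested gene of the window. The median log2 fold change was -0.17 in the flanks, against -0.52 over the 9 tested genes of the window and -0.09 over all genes. In controls the medians were -0.60 in the flanks, -1.85 in the window and -0.06 over all genes, with 4 flanking genes called lower and 1 higher. All 4 lay before the window. The lowest of them, from 46076928, stood at -2.50 ± 0.42, below every gene of the window. The nearest lay just outside it at 46087794, with -0.86 ± 0.21 against -1.11 ± 0.43 for gene 1 just inside. Between genotypes at day 9, the flanking gene from 46009825 was called higher in MPS VII dogs, at 1.33 ± 0.16. That from 45998609 was called lower, at -0.89 ± 0.24. Between genotypes at day 14, 3 of the 8 flanking genes were called higher. These were at 1.36 ± 0.41 from 46076928, 0.83 ± 0.21 from 46087794 and 1.06 ± 0.16 from 46009825. The day 14 median was 0.45 against 0.99 in the window. For the change with age in MPS VII dogs less that in controls, the flanking gene from 46087794 stood at 1.09 ± 0.30. The difference between window and flanks was not tested. The window was chosen on the age change in controls, and the genotypes at day 14 were part of the choice. Nothing is therefore read from its medians beside those of the flanks in those comparisons.

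Among the tested genes outside the window, the 5 whose log2 CPM followed gene 7 most closely over the 20 libraries had Pearson r of 0.946 to 0.954. They were on chromosome 11 from 52205668 (r = 0.954), chromosome 8 from 68961744 (0.951), chromosome 7 from 43434112 (0.951), chromosome 5 from 79808300 (0.947) and chromosome X from 84351485 (0.946). Spearman rho ran from 0.881 to 0.953, and r without the 2 libraries farthest from the median of gene 7 from 0.911 to 0.928. The points share the differences between the 4 groups and the scaling of each library, so these values describe a shared profile. With the group means removed, r was 0.76 to 0.838. The gene on chromosome 8 stood at 481, 561, 140 and 294 CPM in the controls and MPS VII dogs of day 9 and the controls and MPS VII dogs of day 14. Gene 4 was in place 20 by the same measure, gene 6 in place 29 and gene 5 in place 51 of 14549 genes.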

How the data were processed

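RNA was sequenced in 20 libraries, 1 per dog, with paired reads of 100 bases, per the labels' protocols, and mapped to CanFam3.1 with Ensembl build 77. Tools listed in the submitters' processing notes, with no role, are STAR 2.4.0j, HTSeq, edgeR, bcl2fastq and CASAVA 1.8.2. The authors deposited raw counts per gene with exon positions, strand and summed exon length, per the file headers; 0 count columns belonged to no sample. How strand and multiply matching reads were handled in counting is not given in the sources used here. Of counts from 1 to under 200, 65.2% to 76.4% per library were even numbers, so fits were repeated on halved counts. Litter and sex are not given per dog, so neither entered the fits.

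Tests were run in edgeR 4.0.16 (R 4.3.3). Filtering by filterByExpr left 14550 genes, TMM scaled the libraries, and 1 quasi-likelihood fit over the 4 groups (robust, biological coefficient of variation 0.239) gave all comparisons, with Benjamini-Hochberg adjustment over all tested genes. The standard error is the absolute log2 fold change over the root of the F statistic. CPM and RPKM use TMM-scaled library sizes, and log2 CPM a prior count of 2. No pair of libraries within a group agreed within sampling noise (chi-square per gene 16.7 to 607 over 40 pairs). DESeq2 1.42.0 was an alternative.

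The members and lists were chosen with earlier results of these data known. All genes of the window with 50 counts are given; identifiers are printed for 2. Lists of insulin-like growth factor, imprinted and cell type marker genes were not tested, since 0 identifiers matched a gene name. Sequences were not used here.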

Additional observations from a re-analysis of the deposited data

Results flagged for a closer look

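Within groups of 5 libraries, 44 sets of values (10 genes and the ratio of genes 4 to 6 to gene 7, in 4 groups) were searched for a library far from the rest, and 3 were found; chance gives about 1 in 20. Gene 4 stood at 40.0 CPM in library 3 of the MPS VII dogs at day 9, against 167 to 213 CPM in the rest of the group. In the controls of day 14, gene 4 stood at 59.9 CPM in library 5, against 30.8 to 38.2 CPM in the rest. Gene 8 stood at 0.0432 CPM in the same library, which is 1 count, against 0 in the rest, so nothing can be read from it.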

How the results depend on the processing

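Of 1423 values under another setting, 1388 were taken as unchanged. For tested comparisons this meant the same direction and side of the threshold. For described comparisons it meant a move of less than the spread between libraries, even where a call was lost, as for gene 1. Counts of called genes were taken as unchanged if equal or within 1.5 times. Median-ratio scaling, halved counts, library sizes without the most abundant gene and fits of only the groups compared changed no count by over 1.5 times. Summing genes 4 to 6, chosen after seeing the data, took the genes called higher in MPS VII dogs at day 14 from 5 to 3, since 3 entries became 1. For the difference of the age change, 1 gene was called, 0 with no filter on low counts, 3 with DESeq2 and 0 to 3 on leaving out 1 library. DESeq2 called 2.07% of all genes higher there. On leaving out 1 library, 2 to 5 genes were called lower and 0 to 1 higher with age in MPS VII dogs. The highest count lower came without MPS VII day 9 replicate 3, where 10.5% of all genes were called lower. The highest count higher came without MPS VII day 14 replicate 5, where 11.9% of all genes were called higher. On leaving out 1 library, signs turned among values that did not pass the threshold: with age in MPS VII dogs gene 1 ran from -0.0047 to 0.50. Between genotypes at day 9, gene 3 ran from -0.10 to 0.041, gene 4 from -0.19 to 0.18, gene 5 from -0.28 to 0.16, gene 6 from -0.22 to 0.14, gene 7 from -0.073 to 0.21 and gene 9 from -0.27 to 0.17. Gene 10 ran from -0.27 to 0.12 between genotypes at day 14. The cause of these changes was not tested. Depth limits genes 8, 9 and 10, whose totals are given in the report.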
